A study of Mus musculus with 24 samples.

Results

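Snap25, Vamp2, Syt1, Syn1, Stmn2, Gap43, Nefl and Rtn1 are genes that neurons of most kinds express, and their transcripts were followed here across brain, heart, skeletal muscle and liver. The 8 genes were chosen by name, and every non-control probe whose accession belongs to them was taken. This gave 8 of the 21368 genes named on the array, each with 1 probe. RNA came from 3 wild-type (WT) and 3 Rap1 KI/KI male mice and was hybridized to 24 1-color Agilent arrays, 1 for each mouse and tissue. Rap1 KI/KI mice carry an I312R change in RAP1, a shelterin protein, made with CRISPR/Cas9 and backcrossed to C57BL6, so that RAP1 no longer binds its telomeric partner TRF2. Within a genotype, mice are numbered by animal number as WT1, WT2 and WT3, or KI1, KI2 and KI3. The first mouse of each genotype was 5 months of age, and the remaining 4 were 2 months of age. The labels give the genotype as WT or MUT, and the study describes the KI/KI mice as homozygous and the WT mice as littermates. Brain and liver RNA was prepared with one kit and glass beads, and heart and muscle RNA with a kit for fibrous tissue and zirconia beads.

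A level is a processed signal on the log2 scale after subtracting that array's own 75th percentile, so that 0 is that percentile. Levels of different genes come from different probes and cannot be set against each other. Liver arrays had 58.8% to 66.2% of their probes well above background, brain arrays 62.6% to 72.7%, heart arrays 59.1% to 65.6% and muscle arrays 56.5% to 61.8%. The number of arrays limits the precision. The summed level of liver, heart and skeletal muscle marker genes was highest in the tissue that each list names, on all arrays. Outside the liver, the liver genes varied between arrays of a tissue. Their summed level was 2.27 in the brain of WT1 and -2.03 to -1.01 in the other brains. It ran from 0.36 to 3.40 in the muscles and from 3.00 to 5.57 in the hearts, and the cause was not tested. The muscle array of KI3 and the heart arrays of KI1 and KI3 stood apart in the genes described here, so the comparisons between genotypes and between tissues that use them are also given without them.

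A nerve terminal releases transmitter when a vesicle fuses with the plasma membrane. Snap25 on the plasma membrane and Vamp2 on the vesicle zip together into the SNARE complex that drives fusion, Syt1 is the calcium sensor that triggers it, and Syn1 tethers vesicles in the reserve pool. Stmn2 and Gap43 act in the growing axon, on microtubules and at the membrane of the growth cone, Nefl is the light subunit of the neurofilament, and Rtn1 is a reticulon of the neuronal endoplasmic reticulum. Muscle and heart hold the axons and terminals of motor and autonomic nerves, whose cell bodies mostly lie elsewhere, and RNA of a neuron is mostly in its cell body. In bulk tissue, fewer cells of a type and less RNA per cell cannot be told apart.

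All 8 genes were far above the 75th percentile in the brain and lower in the other tissues, and they fell into different patterns outside the brain. Snap25 and Vamp2 were clearly measured everywhere. Stmn2, Gap43 and Nefl were not well above background on any liver array. Nefl and Syt1 were not well above background in the heart or muscle of any WT mouse, but were in both tissues of KI1 and KI3.

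**Figure D1:**
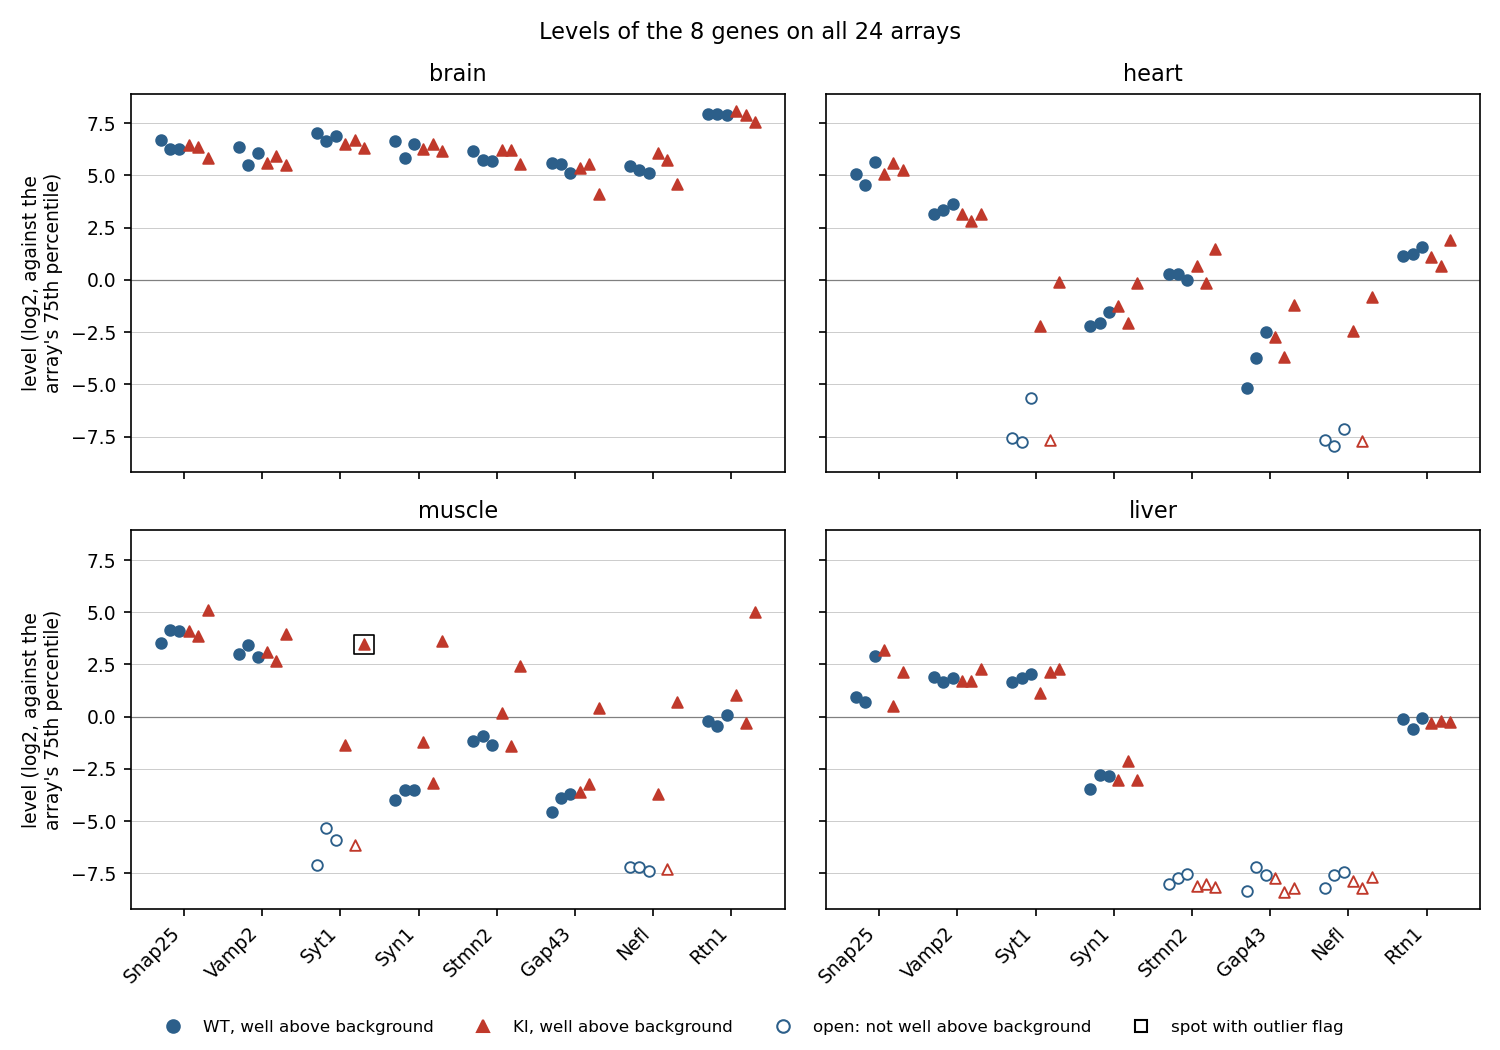
Each point is 1 array, with the gene on the x axis and the log2 level against the 75th percentile of the array on the y axis. Circles are WT and triangles Rap1 KI/KI arrays in the order WT1, WT2, WT3, KI1, KI2, KI3, open symbols were not well above background, and the square marks a spot with an outlier flag. Brain levels lie between 4.10 and 8.10, and the right-most triangle of each muscle cluster, KI3, is the highest of its 6 arrays for all 8 genes.

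In the brain, every gene was well above background on all 6 arrays. Snap25 levels ran from 5.86 to 6.71 (median 6.33), those of Vamp2 from 5.51 to 6.35 (median 5.77), those of Syt1 from 6.33 to 7.02 (median 6.69) and those of Syn1 from 5.83 to 6.67 (median 6.38). Stmn2 ran from 5.54 to 6.21 (median 5.94), Gap43 from 4.10 to 5.59 (median 5.46), Nefl from 4.61 to 6.06 (median 5.36) and Rtn1 from 7.55 to 8.10 (median 7.90). KI3 had the lowest level of the 6 brains for 6 of the 8 genes, and WT1 the highest for 5. The spread between brains was small for Rtn1, with an SD of 0.18 (n = 6), and widest for the axonal genes Gap43 (0.57) and Nefl (0.50). Marker lists of brain regions also differed between these brains. The summed level of 10 cerebellar genes ran from 3.35 to 7.40 and that of 9 genes of forebrain projection neurons from 6.24 to 7.27. KI3 stood apart in 9 microglial genes, with a summed level of 7.35 against 5.93 to 6.33 in the other brains. That of 12 astrocyte genes was 8.75 in KI3, within the range of the other brains (8.63 to 9.26). The part of these regions and cells in the spread was not tested.

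The brain level exceeded that of each other tissue for 8 of 8 genes at an adjusted p of 0.05, by limma over all 24 arrays. Of the 42463 probes tested, 33.4% were higher in brain than in liver, 27.7% higher than in heart and 28.7% higher than in muscle. For Stmn2, which no liver array measured, the brain level was at least 3560-fold that of the liver. The same bound was at least 2190-fold for Gap43 and at least 2440-fold for Nefl. Each bound sets the brain mean against the average of the 6 liver floors, a floor being the dimmest signal measured on an array. The contrast was smallest for the fusion machinery. Vamp2 was 15.8-fold higher in brain than in liver, 6.13-fold higher than in heart and 6.34-fold higher than in muscle. Snap25 was 24.2-fold higher in brain than in liver and 4.55-fold higher than in muscle, and 2.19-fold higher than in heart (log2 difference 1.13, standard error 0.41, adjusted p = 0.019). That call was lost without mouse WT1 (1.05, adjusted p = 0.069), WT2 (1.03, adjusted p = 0.065) or KI1 (adjusted p = 0.053), and without the heart and muscle arrays of KI1 and KI3 (0.98, adjusted p = 0.12). Without those arrays, 7 of 8 genes were higher in brain than in heart and 8 of 8 higher than in muscle.

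Promoter sequence was at hand for Syn1, Syt1 and Rtn1, which lie on the minus strands of chromosomes X, 10 and 12. It covers 250 bases before a start site, from RefSeq (GRCm38.p6). The sequences are shown because these 3 genes have a high brain level in common and differ elsewhere, with Syt1 higher in liver than in heart or muscle. Capitals mark short motifs found on either strand: the left part (TCAGCACC) and the right part (GGACAG) of RE1, the element bound by the neuronal gene repressor REST, the cAMP response element (TGACGTCA), the GC box core (GGGCGG) and the CCAAT box (CCAAT).
Syn1, chrX:20920919-20921168, minus strand: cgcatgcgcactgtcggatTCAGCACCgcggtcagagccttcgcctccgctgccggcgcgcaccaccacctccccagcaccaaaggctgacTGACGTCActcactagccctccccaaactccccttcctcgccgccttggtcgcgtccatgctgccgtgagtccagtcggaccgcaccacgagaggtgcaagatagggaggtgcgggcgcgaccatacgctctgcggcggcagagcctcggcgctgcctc
Syt1, chr10:109010976-109011225, minus strand: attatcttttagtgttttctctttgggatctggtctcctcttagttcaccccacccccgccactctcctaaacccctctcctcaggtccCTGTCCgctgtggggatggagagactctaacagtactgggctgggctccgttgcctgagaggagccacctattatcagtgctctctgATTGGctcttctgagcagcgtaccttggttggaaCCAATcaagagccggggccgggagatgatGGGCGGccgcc
Rtn1, chr12:72236728-72236977, minus strand: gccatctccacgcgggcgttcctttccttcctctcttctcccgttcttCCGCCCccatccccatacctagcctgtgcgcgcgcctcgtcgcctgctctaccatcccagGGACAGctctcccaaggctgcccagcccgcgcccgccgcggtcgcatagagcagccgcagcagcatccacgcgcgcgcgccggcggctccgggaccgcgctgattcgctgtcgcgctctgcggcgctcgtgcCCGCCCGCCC

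Among the 3 windows printed, the left part of RE1 was found once, in Syn1, 231 bases before the start site, and 1.32% of all 32851 promoter windows of this length hold it. The cAMP response element was also found in Syn1, 159 bases before the start site (1.55% of all windows). The right part of RE1 was found in Syt1 and Rtn1 (18.7% of all windows), the GC box core in the same 2 genes (32.7%), and the CCAAT box in Syt1 only, 74 and 40 bases before the start site (33.8%). Only exact letters were counted. In Syn1, ggtcag, which differs from the right part in 1 letter, closely follows the left part. The last GC box cores of the Rtn1 window overlap. The GC content was 68% in the Syn1 window, 56.4% in that of Syt1 and 72.4% in that of Rtn1, against a median of 52.4% over all windows. Syt1 has 1 and Rtn1 2 further windows, which hold fewer matches than those printed. That of Syt1 held 0 of the 5 motifs, and those of Rtn1 held a GC box core and a CCAAT box, and the right part of RE1. A match of these letters is a description of the sequence and no measure of binding.

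In the liver, the genes of axon growth and the neurofilament were not measured, whereas the vesicle genes were. Syt1 was well above background on all 6 liver arrays, with levels of 1.66, 1.87 and 2.03 in WT1 to WT3 and 1.13, 2.15 and 2.30 in KI1 to KI3. In WT mice its liver level was at least 168-fold that of the heart and at least 125-fold that of the muscle. Over both genotypes, Syt1 was lower in heart than in liver (limma adjusted p = 2.8e-06) and in muscle than in liver (adjusted p = 7.6e-06). It was measured on 2 of 6 heart arrays and, with the flagged spot left out, on 1 of 5 muscle arrays. It was the one gene of the 8 called lower in heart than in liver and in muscle than in liver (34.4% and 34.9% of all probes). Vamp2 was even across the livers, from 1.65 to 2.29, and Rtn1 from -0.60 to -0.07. Snap25 differed more between livers, at 0.94, 0.70 and 2.91 in WT1 to WT3 and 3.20, 0.49 and 2.12 in KI1 to KI3. WT3, KI1 and KI3 were above 2 and the other 3 livers below 1, in both genotypes. Syn1 ran from -3.44 to -2.13.

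In the heart, Snap25 was high in every mouse. Its level was 5.07, 4.53 and 5.65 in WT1 to WT3 and 5.06, 5.61 and 5.26 in KI1 to KI3. The levels of Vamp2 were 3.17, 3.36 and 3.65 in the WT hearts and 3.16, 2.81 and 3.17 in the Rap1 KI/KI hearts. The genotypes overlapped for both Snap25 and Vamp2. Snap23, a broadly expressed relative of Snap25, was at 5.04, 4.54 and 4.78 in the WT hearts and at 4.95, 5.45 and 5.12 in KI1 to KI3. Whether the Snap25 probe also reads Snap23 was not tested. For Syn1, the vesicle tether, the hearts of WT1 to WT3 were at -2.19, -2.06 and -1.54 and those of KI1 to KI3 at -1.23, -2.04 and -0.17. Syt1, the calcium sensor, was not well above background in the 3 WT hearts or in KI2 (-7.75 to -5.64), and was measured at -2.21 in KI1 and -0.08 in KI3. For both genes, KI3 was the highest heart and KI1 the second, while KI2 lay among the WT hearts.

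Of the axonal genes in the heart, Stmn2 was at 0.30, 0.29 and 0.01 in WT1 to WT3 and at 0.67, -0.13 and 1.48 in KI1 to KI3. Gap43 was at -5.15, -3.73 and -2.50 in the WT hearts and at -2.74, -3.70 and -1.21 in the Rap1 KI/KI hearts. Nefl was not well above background in the WT hearts or KI2 (-7.96 to -7.14), and was measured at -2.44 in KI1 and -0.83 in KI3. Rtn1 was at 1.16, 1.26 and 1.59 in the WT hearts and at 1.12, 0.65 and 1.89 in the Rap1 KI/KI hearts. KI3 was the highest of the 6 hearts for 6 of the 8 genes, all but Snap25 and Vamp2, for which WT3 was highest. The heart arrays of WT3 and KI3 shared a slide, and the other hearts were on another.

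In the muscle, KI3 was the highest array for all 8 genes and KI1 the second for 5. Snap25 was at 3.51, 4.16 and 4.11 in WT1 to WT3 and at 4.12, 3.85 and 5.09 in KI1 to KI3. Vamp2 was at 2.98, 3.44 and 2.85 in the WT muscles and at 3.11, 2.67 and 3.97 in the Rap1 KI/KI muscles. For both SNARE genes KI1 lay within the WT range and only KI3 above it, and KI2 lay below it for Vamp2. Syn1 was at -4.0, -3.49 and -3.53 in the WT muscles, and at -1.19, -3.19 and 3.62 in KI1 to KI3. Syt1 was not well above background in the WT muscles or KI2 (-7.12 to -5.34), and was measured at -1.37 in KI1. Its spot in KI3 carries an outlier flag and was left out of the fits, and its level would be 3.46.

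The muscle levels of Stmn2 were -1.15, -0.91 and -1.34 in WT1 to WT3 and 0.18, -1.38 and 2.45 in KI1 to KI3. Those of Gap43 were -4.55, -3.88 and -3.69 in the WT muscles and -3.59, -3.22 and 0.40 in the Rap1 KI/KI muscles. Nefl was not well above background in the WT muscles or KI2 (-7.37 to -7.19), and was measured at -3.70 in KI1 and 0.69 in KI3. For Rtn1, the WT muscles were at -0.20, -0.45 and 0.07 and the Rap1 KI/KI muscles at 1.04, -0.29 and 5.02. KI1 was second to KI3 for Syn1, Syt1, Stmn2, Nefl and Rtn1.

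Between heart and muscle, the order depended on the muscle of KI3. With all arrays, 1 of 8 genes was called higher in heart than in muscle, against 21% of all probes. It was Snap25, with a log2 difference of 1.06 (standard error 0.41, limma adjusted p = 0.042), and 0 genes were called lower. Without the muscle array of KI3, 4 of 8 were called higher in heart. These were Snap25 (1.24, adjusted p = 0.024), Syn1 (1.39, adjusted p = 0.0033), Stmn2 (1.30, adjusted p = 0.00082) and Rtn1 (1.19, adjusted p = 0.00048). In the 12 WT arrays alone there were 3, Syn1 (1.74, adjusted p = 0.0013), Stmn2 (1.33, adjusted p = 0.0012) and Rtn1 (1.53, adjusted p = 0.00050). The call for Snap25 was lost there (1.16, adjusted p = 0.12). It was also lost without mouse WT1 (0.96, adjusted p = 0.14), WT3 (0.96, adjusted p = 0.072), KI1 (1.06, adjusted p = 0.070) or KI2 (0.86, adjusted p = 0.10). Relative to liver, 5 of 8 genes were higher in heart (Snap25, Vamp2, Stmn2, Gap43 and Rtn1; 32.3% of all probes) and 5 of 8 in muscle (Snap25, Vamp2, Stmn2, Gap43 and Nefl; 36.3%). Because no liver measured them, the fold of Stmn2 over liver was at least 79.5 in heart and at least 45.9 in muscle, and that of Gap43 at least 6.53 and at least 6.92. Nefl was measured in 2 of the 6 muscles, and its call was lost under 10 of the alternatives run, among them the WT arrays alone (adjusted p = 0.15). The call of Rtn1 in heart over liver was lost without mouse WT1 (adjusted p = 0.052), WT2 (adjusted p = 0.076), WT3 (adjusted p = 0.069) or KI1 (adjusted p = 0.056). Without the heart and muscle arrays of KI1 and KI3, the genes higher in heart than in liver were the same 5 and Syn1 (0.89, adjusted p = 0.0086), and those higher in muscle than in liver were Snap25, Vamp2, Stmn2 and Gap43.

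The genotype comparison asked whether Rap1 KI/KI mice differed from WT in these transcripts. By limma, 0 of the 8 genes were called at an adjusted p of 0.05, whichever the tissue, and 0 had an unadjusted p under 0.05. Over the whole array 0% of the probes passed the adjusted threshold in each tissue. An unadjusted p under 0.05 was reached by 2.62% of brain, 7.51% of heart, 2.48% of muscle and 2.13% of liver probes. In the brain, where 8 genes were tested, the differences, Rap1 KI/KI minus WT, ran from -0.40 to 0.19 (median -0.14, against -0.05 over all probes), with standard errors of 0.19 to 0.41. In the liver, where 5 genes were tested, they ran from 0.01 to 0.42 (median 0.10, against -0.01), with standard errors of 0.22 to 0.81.

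In the muscle, 6 genes were tested and all 6 differences were positive. Syn1 had 3.42 (standard error 1.53, adjusted p = 0.94), Rtn1 2.12 (1.22), Gap43 1.90 (0.99) and Stmn2 1.55 (0.86), whereas Snap25 had 0.43 (0.36) and Vamp2 0.16 (0.36). The median was 1.73, against -0.07 over all probes tested. It was 0.55 without KI3, 2.11 without KI1 and -0.09 without both, when KI2 alone stood for its genotype. Syn1 and Gap43 had all 3 Rap1 KI/KI muscles above all 3 WT muscles, 2 of 6 genes, and 6.45% of all probes separated the genotypes in either direction. Without both arrays, Syn1 differed by 0.49 (standard error 0.31) and Gap43 by 0.81 (0.40). With the mouse as a replicate block over all 24 arrays, the differences of Syn1, Rtn1, Stmn2 and Gap43 had an unadjusted p under 0.05 and an adjusted p of 0.92 or above.

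In the heart, 6 genes were tested, 4 with positive and 2 with negative differences. Gap43 had 1.24 (standard error 0.82, adjusted p = 0.70), Syn1 0.79 (0.48), Stmn2 0.47 (0.40), Snap25 0.23 (0.33), Rtn1 -0.12 (0.34) and Vamp2 -0.35 (0.23). The median was 0.35, against -0.02 over all probes, and was -0.22 without KI1 and KI3. With the slide as a block, the limma unadjusted p was 0.028 for Gap43 and 0.044 for Syn1, and the adjusted p 0.51 for both. In the heart, brain and liver, 0 of the genes tested had genotypes that did not overlap, where 14.7%, 7.75% and 5.85% of all probes did. Nefl and Syt1 were measured on too few heart and muscle arrays to be tested with the filter. The mean Nefl level of the Rap1 KI/KI group, measured on 2 of its 3 arrays in each tissue, was 3.69-fold the average WT floor in the heart and 3.20-fold in the muscle. For Syt1 the fold was 4.67 in the heart and, with the flagged spot left out, 2.56 in the muscle. These folds are no bounds on a genotype difference, because KI2 entered with its unmeasured signal. They rest on KI1 and KI3, and on KI1 for Syt1 in the muscle. With no filter, Nefl had an adjusted p of 0.74 in the heart and 0.82 in the muscle. Whether the genotype difference varied between tissues was tested with limma's F test. It called 0 of 8 genes, where 0% of all probes passed the adjusted threshold and 2.93% an unadjusted p under 0.05.

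**Figure D2:**
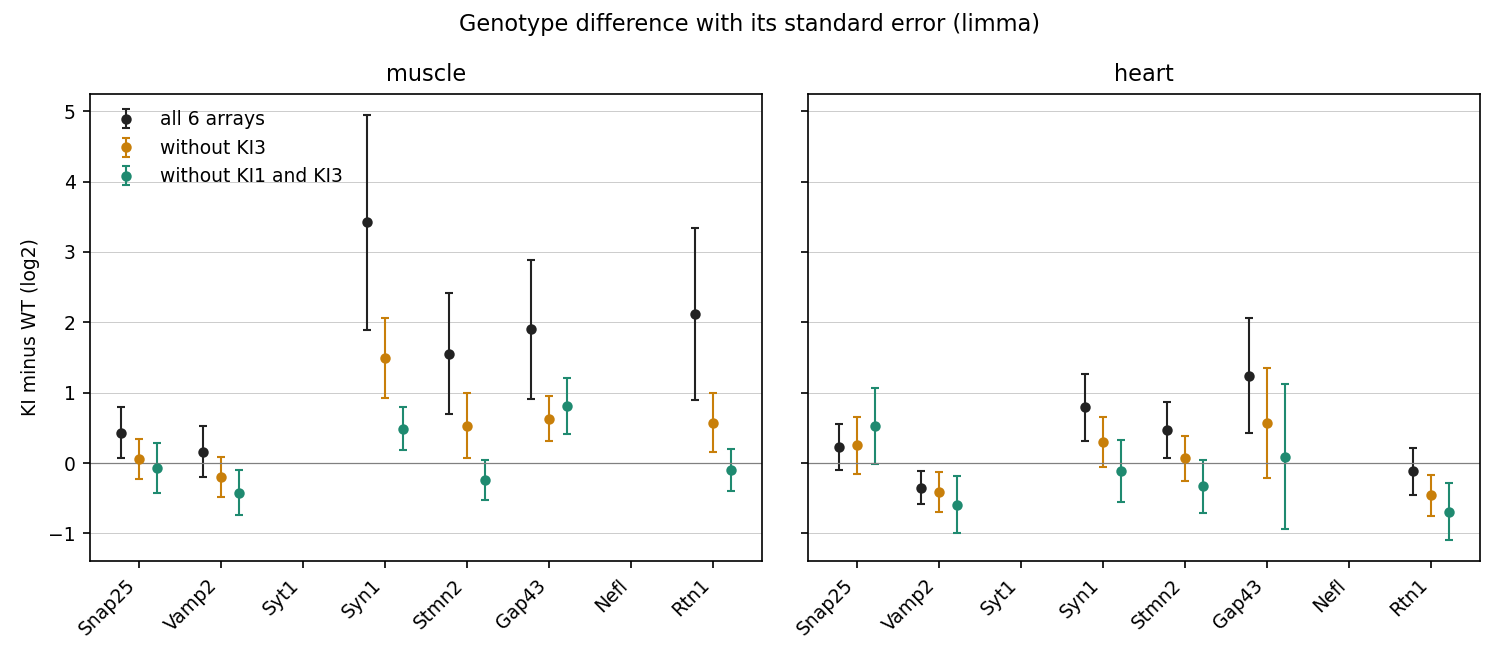
Points are log2 differences, Rap1 KI/KI minus WT, in muscle (left) and heart (right), and bars their standard errors from limma, with all 6 arrays, without KI3, and without KI1 and KI3. Syt1 and Nefl have no point because too few arrays measured them. The muscle difference of Syn1 goes from 3.42 to 1.49 without KI3 and to 0.49 without both.

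The muscle of KI3 was then set against the brain, gene by gene. Its excess, the linear level minus the mean of the other 5 muscles, was 22.6% of the mean brain level for Snap25, 14.9% for Syn1, 13.2% for Rtn1 and 12.8% for Vamp2. It was 7.95% for Stmn2, 3.65% for Nefl and 3.17% for Gap43, and 10.5% for Syt1 with its flagged spot kept. The median was 12.8% without the Syt1 spot. It was 7.82% after quantile normalization and 5.69% with no scaling between arrays. The excess was largest for Snap25 and smallest for the axonal genes, and Gap43 and Nefl were also the genes that varied most between brains. The brain levels of Snap25 and Vamp2 were less than 16-fold those of the other muscles. Over the remaining 6 genes, with the flagged spot kept, the median was 9.22%. By the same measure, Snap25 had -6.83% in the heart of KI1, set against WT1 to WT3 and KI2. Against the brain of KI3 itself, the excess of Gap43 was 7.26% and that of Nefl 6.50%, and that of Syn1 16.6%. In the muscle of KI1, set against WT1 to WT3 and KI2, the excess was under 3% for each gene, at 2.64% for Snap25, 1.12% for Stmn2, 0.503% for Rtn1 and 0.430% for Syn1. In the heart of KI3 it was 2.75% for Stmn2, 1.27% for Nefl, 0.898% for Syt1, 0.870% for Gap43 and 0.771% for Syn1, and negative for Snap25 and Vamp2.

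**Figure D3:**
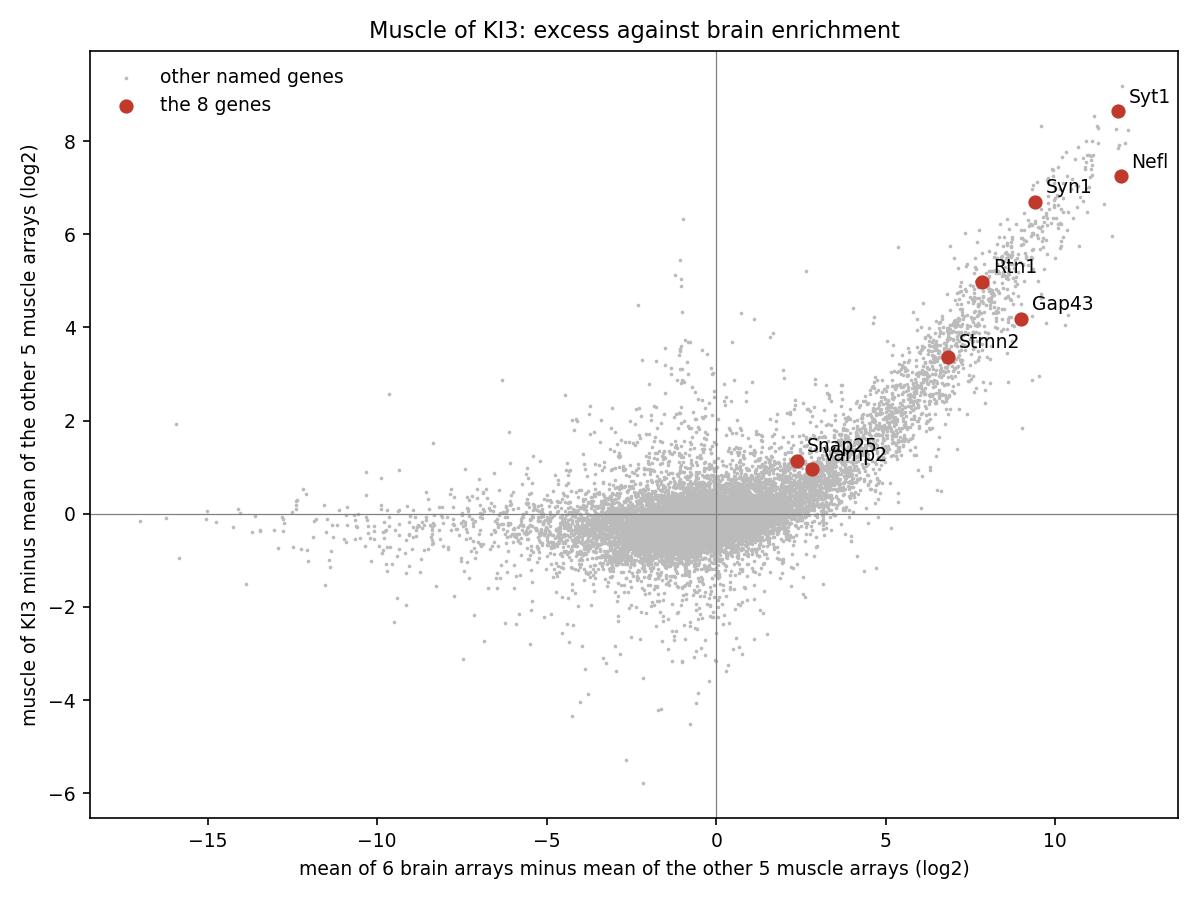
Each point is 1 of the 16041 named genes well above background in the muscle of KI3. The x axis is the mean of the 6 brain arrays minus the mean of the other 5 muscle arrays, and the y axis the KI3 muscle minus the same 5 arrays, both log2. Genes with little brain enrichment lie near 0, and beyond 4 on the x axis the points rise along a band that holds 6 of the 8 genes marked in red, while Snap25 and Vamp2 lie between 2 and 4. Both axes subtract the same 5 arrays, and only genes measured in KI3 are shown, so part of the rise is built in.

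The 8 genes shared this excess with many other brain transcripts. Among named genes measured in the muscle of KI3, those with a brain level over 8 log2 units above the other muscles (295 genes) had a median excess of 5.66 on the log2 scale. The median was 3.50 for 6 to 8 units (426 genes), 1.87 for 4 to 6 (536 genes) and -0.29 for 0 to 4 units below the other muscles (8886 genes). Only genes measured in that muscle enter, and both values subtract the same other muscles. Part of this rise is thus fixed by the selection. Taking the genes measured on all 6 brain arrays with a brain mean at least 16-fold that of the other muscles, 1305 of 1479 were higher in the muscle of KI3 than in any other muscle. Their median excess was 7.56% of the brain level, and that of the 6 genes described here that meet the same rule was 9.22%. Of the 100 genes with the widest gap between KI3 and the next muscle, 97 had a mean brain level at least 4 log2 units above the mean of the other muscles. Of all genes measured in that muscle, 7.84% did. The gap and this difference draw on the same other muscles. The 10 with the widest gap were Sv2a, Gad2, Chgb, Rgs8, Stxbp5l, Elmod1, Syt16, Scg2, Ptgds and Olfr659, and all but Olfr659 were well above background on all 6 brain arrays. Sv2a, a vesicle membrane protein, was at 0.26 in KI3 and at or below -6.99 in the other 5.

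Other synaptic and axonal genes were also high in the muscle of KI3. Of 29 further genes of the synaptic vesicle and its release, 22 had a brain level at least 16-fold that of the other muscles, and 22 of 22 were highest in KI3, with a median excess of 8.98%. Among those with the highest brain level, Dnm1, the dynamin of endocytosis, was at 5.04 in the muscle of KI3 and 2.36 to 3.71 in the others. Rab3a, a vesicle GTPase, was at 5.12 and 4.35 to 4.79, and Cplx2, a complexin, at 6.62 and 6.26 to 6.68, so that of these genes only Cplx2 lay within the range of the others. Of 25 further axonal and cytoskeletal genes, 21 of 22 were highest in KI3, with a median excess of 7.46%. Kif5a, a motor of axonal transport, was at 5.56 in KI3, 1.81 in KI1 and -2.70 to -1.88 in the other 4 muscles. Kif1a was at 3.24 in KI3 and at -1.19 to 0.67 in the others, Stmn4 at 4.26 and 1.14 to 2.27, and Thy1 at 4.98 and 3.21 to 4.21. Both lists had 0 genes called in any tissue between the genotypes. At an unadjusted p under 0.05 in the muscle, 1 of 21 vesicle genes and 2 of 21 axonal genes were higher, and 0 were lower, where 2.48% of all muscle probes passed in either direction. Their median differences in the muscle were 0.60 and 1.05, and 0.09 and -0.08 without KI1 and KI3. For comparison, 16 broadly expressed relatives of the 8 genes, such as Snap23 and Rtn4, had a median genotype difference of -0.09 over the 15 tested. The excess was also seen among them, because 3 met the 16-fold rule and 3 of 3 were highest in KI3, with a median of 8.18%. Snap23 was highest in KI3 (4.72, others 3.39 to 4.07) and Rtn4 lowest (5.34, others 5.48 to 5.79).

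Markers of other brain cells and regions were also read in the muscle of KI3, and differed between lists. The 9 genes of forebrain projection neurons were well above background on 9 of 9 probes there and on 2 to 6 in the other muscles. Their summed level was 4.37 in KI3, 2.94 to 3.01 in the other Rap1 KI/KI muscles and 3.16 to 3.59 in the WT muscles, and the 8 that meet the 16-fold rule had a median excess of 13.5%. Tbr1, a transcription factor of cortical neurons, was at 1.44, where the other muscles had -7.13 to -3.99. All 12 astrocyte markers were measured in KI3, against 8 to 11 in the others, with a median excess of 8.03% over 8 genes, and their summed level was 6.69, against 5.63 to 6.08. Markers of oligodendrocytes had a median of 2.56% over 6 genes (summed level 7.25, others 6.46 to 7.23), and those of the cerebellum 0.238% over 6 genes (1.39, others 0.90 to 1.84). The cerebellar percent depends on the brains in the mean. The summed level of that list was 7.40 in the brain of KI1, 6.24 in KI2 and 3.99 in KI3. Microglial genes had 12.7% over 3 genes, and their summed level of 4.65 over all 9 lay within that of the other muscles (3.81 to 4.89). Those of the choroid plexus had 0.150% over 4 genes (summed level 0.01, others -0.52 to 0.16). The part of these cell types in the muscle result was not tested.

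Markers of peripheral nerve and of the muscle fibre were also read. In the muscle of KI3, 9 of 10 Schwann cell genes were measured, with a summed level of 4.17, inside the range of the other muscles (3.75 to 4.77). Pmp22 was at 3.46 and Prx at 1.40 there, also inside that range. Of 17 genes of peripheral neuron cell bodies, 10 were measured in KI3 and 7 to 9 in the others, with summed levels of 2.03 and 1.24 to 1.56. KI3 was thus the highest muscle for this list by both measures. Within the list, the sodium channel genes Scn9a and Scn10a, found in sensory neurons, were not well above background on any muscle array. Genes of denervated or immature fibres had a summed level of 9.78 in KI3 and 9.55 to 9.77 in the others, with a median genotype difference of -0.01 over 10 genes. Skeletal muscle markers had 11.96 in KI3 and 11.59 to 11.90 in the others.

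**Figure D4:**
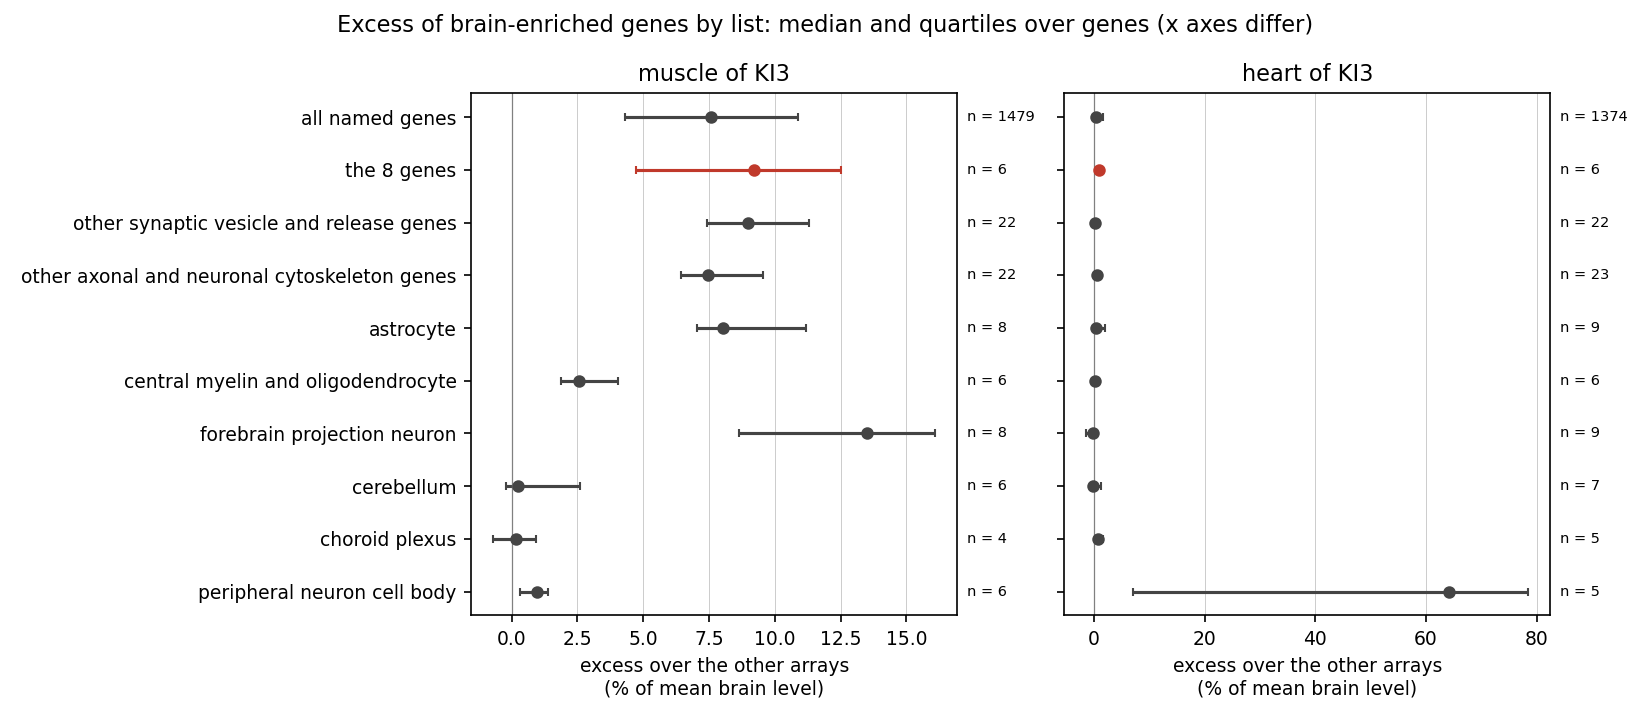
The excess of KI3 over the reference arrays of the tissue, as a percent of the mean brain level, in muscle (left, against the other 5 muscles) and heart (right, against WT1 to WT3 and KI2). Points are medians and bars the quartiles over the n genes of each list whose brain mean is at least 16-fold that of the reference arrays, and the x axes differ. In the muscle, forebrain genes lie at 13.5%, the 6 genes of this group at 9.22% and cerebellar genes at 0.238%, and in the heart the genes of peripheral neuron cell bodies lie at 64.1% and the medians of the other lists plotted below 1%. Cerebellar brain levels differed widely between mice, so their percent depends on the brains in the mean. The 16-fold rule and the excess use the same reference arrays, so part of the excess is fixed by the selection. Lists of Schwann cell (53.6% in the heart, 2 genes), denervated fibre (6.15%, 2 genes), microglial, broadly expressed and tissue check genes are not plotted.

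In the heart, 16 of 17 genes of peripheral neuron cell bodies were well above background in KI3, 13 in KI1 and 9 to 11 in the other 4 mice. Their summed level was 4.31 in KI3, 3.21 in KI1, the lowest of the 6, and 3.40 to 4.17 in the others. The 5 that meet the 16-fold rule had a median excess of 64.1% of their brain level in KI3 and 16.7% in KI1, and were above all 4 reference hearts in both mice. That rule keeps only genes that are low in the same 4 reference hearts against the brain. Part of this excess is thus fixed by the selection. Chosen after its values were seen, Prph, the peripheral neuron intermediate filament, was at -0.45 in KI3, -1.99 in KI1 and -5.22 to -4.53 in the other hearts. Genes of forebrain neurons had a median excess of -0.179% in the heart of KI3 over 9 genes, and the summed level of that list was 0.39 in KI3, 1.12 in KI1 and 0.43 to 1.40 in the other hearts. Of the 9 forebrain genes, 5 were well above background in the heart of KI3, 6 in KI1 and 4 to 5 in the other hearts. Tbr1 and Neurod6 were so on no heart array. Of 10 Schwann cell genes, 9 were measured in both KI1 and KI3 and 7 to 8 in the other hearts, with summed levels of 4.27 and 4.56, against 3.83 to 4.27, and the 2 of them that meet the 16-fold rule had a median excess of 53.6% in KI3. The part of these cell types in the heart result was not tested.

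As a description over the 24 arrays, the genes whose levels followed the mean of the 8 most closely included Cadps and Cplx1 (Pearson r = 0.995 for both), then Zcchc18, Tmem179, Eno2, Elavl3, Resp18 and Nsg2 (r from 0.992 to 0.993). The arrays of a tissue are not independent points, and the brain fixes most of this likeness. Over the 18 heart, muscle and liver arrays, the closest included Nsg2 (r = 0.972), Cplx1, Cadps, Elavl3, Chgb, Tmem179, Zcchc18, Eno2 and Olfm1 (0.950). Among the 8 genes themselves, the 28 pairwise correlations had a median of 0.85 over 24 arrays (0.17 to 0.99). The median was 0.91 over the 6 muscles, where KI3 lies apart, 0.64 over the 6 hearts and 0.67 over the 6 brains.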

How the data were processed

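Each array file deposited by the authors gives intensity: 1-color Agilent signals that Feature Extraction had corrected for background and spatial trend, not normalized across arrays. A second deposited table holds score values, the authors' z-scores of log10 signals within an array. For the analysis of the arrays the methods refer to an earlier publication, and the test used is not given in the sources used here. Levels are log2 signals less each array's 75th percentile. Controls and outlier-flagged spots were dropped before replicate spots were averaged. Accessions named 28331 of 55681 probes (RefSeq, GRCm38.p6), and other genes are shown by their probe with the highest mean level.

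In each tissue, limma 3.58.1 (R 4.3.3, statmod 1.5.0, and version 1.17.8 of data.table) tested genotype for probes that at least 3 of its 6 arrays measured well above background. Tissues and the interaction were tested over all 24 arrays. Tests were two-sided, with Benjamini-Hochberg adjustment over all tested probes, and were checked on simulated data. Animal numbers in the labels pair the tissues of a mouse. Over 36 such pairs, deviations correlated at -0.22 to 0.26 (consensus 0.026).

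Alternatives were quantile normalization, normexp correction, z-scores, other filters, age, slide or mouse as a block, WT arrays alone, and arrays left out. Leaving out KI1 and KI3 together, keeping flagged spots and taking WT muscles as the reference were added after seeing the data. The 8 genes and all lists were chosen with earlier results of these data known. Named were the 8 genes, up to 4 genes a list by brain or muscle level, the 10 genes most like the 8 and the 10 with the widest gap in the muscle of KI3. Defining markers and genes said to be chosen later came on top, and some genes that the rule names are not reported here. All liver arrays shared a slide, as did all muscle arrays, and in the brain the slide coincides with age. In the heart, WT3 and KI3 were on a slide apart from the other mice.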

Additional observations from a re-analysis of the deposited data

How the results depend on the processing

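The number of the 8 genes called between the genotypes was 0 in each tissue, and 0 for the interaction, under every alternative run, including the mouse as a replicate block (0 called in the muscle, median difference 1.73). The block changed no call of the 8 genes. The median difference in the muscle and heart, 1.73 and 0.35, became -0.09 and -0.22 without the arrays of KI1 and KI3, by construction from 1 KI array. Leaving out 1 mouse at a time gave medians of -0.28 to 0.05 in the brain, 0.16 to 0.52 in the heart, 0.55 to 2.45 in the muscle and 0 to 0.19 in the liver. Genes called between brain and liver, and between brain and muscle, stayed at 8, and between brain and heart at 7 to 8, with each mouse left out. The counts were 0 to 4 for heart against muscle and 5 to 8 for heart or muscle against liver. For heart against muscle there were 0 with no filter, 3 in the WT arrays alone, 4 without the muscle of KI3, and 3 without the heart and muscle arrays of KI1 and KI3. The excess in the muscle of KI3, 12.8% of the brain level, was 7.82% after quantile normalization and 5.69% with no scaling, and 12.2% to 13.3% with each other mouse left out. The causes of the shifts with scaling were not tested.

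Single differences changed sign as follows, each reversed value with an adjusted p above 0.05. Without the arrays of KI1 and KI3, the genotype difference was -0.11 for Syn1 and -0.33 for Stmn2 in the heart, and -0.07 for Snap25, -0.10 for Rtn1, -0.42 for Vamp2 and -0.24 for Stmn2 in the muscle. Leaving out 1 mouse, it ran from -0.05 to 0.51 for Snap25 and -0.46 to 0.17 for Rtn1 in the heart (0.01 without WT3), and from -0.20 (without KI3) to 0.45 for Vamp2 in the muscle. Syn1 in heart against muscle was -0.14 after normexp correction and -0.08 (without KI2) to 1.15 (without KI3, adjusted p = 0.014) with 1 mouse left out. Syn1 in muscle against liver, 0.91 with all arrays, was -0.14 (without KI3) to 1.79 (without KI2, adjusted p = 0.019) with 1 mouse left out, -0.06 without its muscle array, -0.65 in the WT arrays alone and -0.56 without the heart and muscle arrays of KI1 and KI3. In the brain the genotype difference also changed sign for Gap43 (0.06 without KI3), Nefl (-0.11 without KI1), Rtn1 (0.06 after quantile normalization) and Syn1 (0.02 after normexp correction). In the liver it did for Snap25 (-0.21 without KI1), Vamp2 (-0.09 without KI3), Syt1 (-0.21 without KI3) and Rtn1 (-0.16 without WT2). Averaging several probes of a gene was not run, because each of the 8 genes has 1 probe.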
